A study of Homo sapiens with 4 samples.

Results

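Mitochondrially encoded messenger RNAs of respiratory complex I were followed in RNA that came down with an SF3B6 antibody (IP) and in input RNA. They are MT-ND1, MT-ND2, MT-ND3, MT-ND4, MT-ND4L, MT-ND5 and MT-ND6, chosen by gene symbol, and all 7 are listed among the 18276 genes of the table. The libraries, 2 of IP and 2 of input, come from MDA-MB-231, a line of triple-negative breast cancer cells with mesenchymal features. In every library the cells had been irradiated once with 400 mJ/cm2, which links RNA to bound protein, and the lysate had been digested with micrococcal nuclease. The IP used 5 ug of antibody, and it was set against input alone, which does not distinguish RNA bound to SF3B6 from RNA carried along in other ways. The series asks which transcripts SF3B6 contacts. SF3B6 belongs to the SF3b complex, which helps the U2 small nuclear ribonucleoprotein to settle on the branch point of nuclear introns.

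Complex I oxidises NADH in the inner mitochondrial membrane, passes the electrons to ubiquinone and pumps protons. Most of its subunits are made from nuclear genes and imported, but the hydrophobic core of its membrane arm is encoded in mitochondrial DNA. Mitochondrial DNA is transcribed from both strands into long precursors, most of which are cut at the tRNAs that lie between the messengers. Its genes have no introns, and their transcripts are made and translated inside the organelle. MT-ND6 is the one messenger of the lighter strand, while the others are transcribed from the opposite one, and MT-ND4L and MT-ND4 stay together on a shared messenger.

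IP 1 and IP 2 held 55492 and 30431 counts in genes, and input 1 and input 2 held 317190 and 519836. A count of 0 allowed up to 54.1, 98.6, 9.46 and 5.77 CPM (each library's counts brought to a total of 1e+06) in these libraries, and every member was counted in every library. The IP libraries had fewer counts than either input, so depth and group cannot be told apart. The libraries of a group are called biological replicates in the design text. Both pairs differed beyond sampling noise: chi-square per degree of freedom was 4.33 for IP over 576 genes and 1.72 for input over 6053 genes. All 6 markers of the line (VIM, CD44, AXL, EGFR, FN1 and KRT18) had counts in each library. Of 4 markers known to be low in it, ESR1 and PGR were not listed, CDH1 had 0 to 3 counts and ERBB2 had 3 to 147. In input 1 and input 2 ERBB2 (76 and 147 counts) lay above CD44 (52 and 94), so it did not set the line apart. Of 3 blood cell markers 0 were listed. Of 2 endothelial markers and 1 adipocyte marker listed, none had more than 1 count in a library. The field for the cell line ends in a different digit for each sample, and the titles, which all give MDA-MB-231, were used.

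The 7 messengers took up a larger share of gene counts in IP than in input. They held 220 of the counts in IP 1 and 106 in IP 2, or 0.396% (95% Wilson interval 0.347 to 0.452) and 0.348% (0.288 to 0.421). In input 1 and input 2 they held 550 and 797 counts, or 0.173% (0.160 to 0.188) and 0.153% (0.143 to 0.164). Each IP share lay above each input share. Intervals cover counting error of reads only. The reads carry no molecular identifiers, so copies of the same molecule cannot be told apart and the intervals can be too narrow. The share depends on what it is measured against. The authors' FPKM values (reads scaled to gene length and library total) rest on larger library totals, which came to 0.758, 0.501, 2.12 and 2.55 times 1e+06 for IP 1, IP 2, input 1 and input 2. Counts in genes were 7.32% and 6.07% of those totals in IP, and 15.0% and 20.4% in input. Against them the 7 messengers made up 0.0290% and 0.0211% in IP beside 0.0259% and 0.0313% in input. These groups overlapped.

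Single messengers were tested with edgeR (quasi-likelihood test) over the 3668 genes that had enough counts, with TMM scaling and Benjamini-Hochberg adjustment. All 7 members were tested, but MT-ND3 passed the filter on counts through its IP libraries alone. MT-ND2, MT-ND3, MT-ND4 and MT-ND5 were higher in IP, and MT-ND1, MT-ND4L and MT-ND6 did not pass. Over all genes tested, 2.7% were called higher and 1.36% lower, against 4 and 0 of the 7. The members' median log2 fold change (IP minus input) was 1.39, beside -0.06 over all genes tested. Their normalised counts (CPM of the tested genes after TMM) in IP lay above both inputs for 5 of 7, which held for 20.9% of all genes tested. With the FPKM totals as the scale, which put the median of all genes tested at -1.65, 0 of 7 members were called higher (0.463% of all genes tested) and 1 lower (57.2%), and the log2 fold changes of MT-ND1, MT-ND2 and MT-ND6 turned negative.

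**Figure D1:**
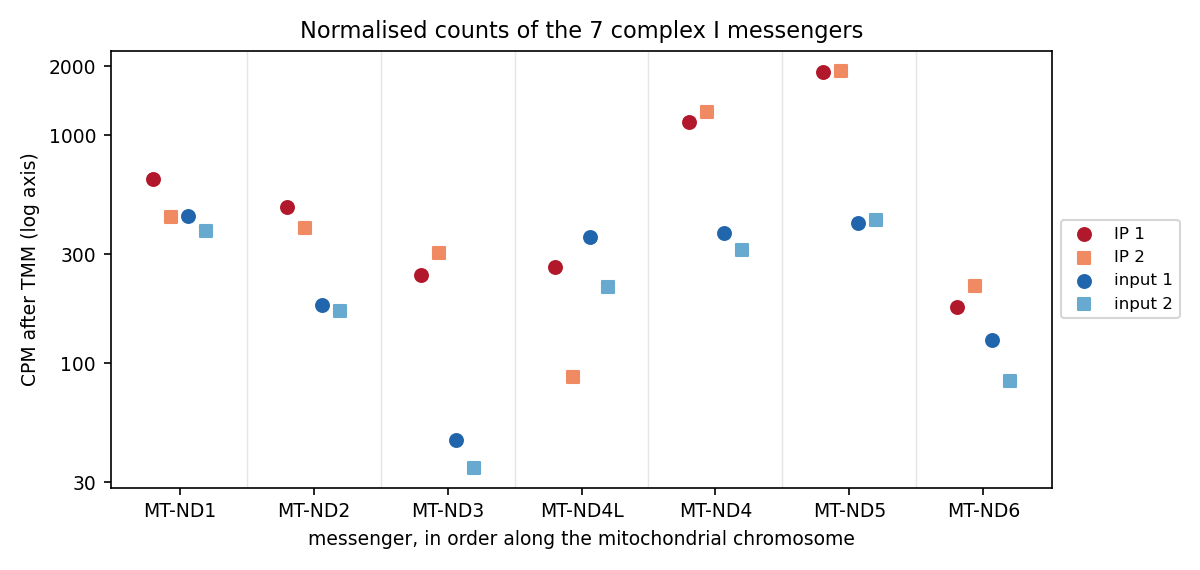
Normalised counts (CPM after TMM, log axis) of the 7 messengers, 1 point per library, for 2 IP and 2 input libraries. MT-ND5 stands at 1894 and 1917 CPM in IP and at 412 and 426 in input, while the groups overlap for MT-ND1 and MT-ND4L.

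The large subunits ND2, ND4 and ND5 resemble ion antiporters and form most of the proton-pumping membrane arm. MT-ND5 (chromosome MT, 12337 to 14148, 1812 bases), whose protein sits at the far end of that arm, had 86 and 44 counts in IP 1 and IP 2 and 117 and 209 in input 1 and input 2. It stood at 1905 ± 16.7 CPM in IP and 419 ± 10.2 CPM in input (SD, n = 2 libraries each), and the groups did not overlap. The IP libraries lay closer together than the counting error of their 130 counts (8.77%), so this SD understates the error. Its log2 fold change was 2.18 ± 0.18 (SE), a 4.52-fold rise (edgeR adjusted p = 3.85e-11), with both IP libraries above both inputs.

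MT-ND4 (chromosome MT, 10760 to 12137, 1378 bases), the next subunit inward, had 52 and 29 counts in IP beside 106 and 154 in input. The IP libraries were at 1145 and 1264 CPM and the inputs at 373 and 314, again without overlap. It rose 3.51-fold (1.81 ± 0.21 SE on the log2 scale; edgeR, adjusted p = 1.07e-07). MT-ND4 and MT-ND5 passed without each library in turn. On the scale of the FPKM totals, neither passed, at 0.20 and 0.56 (edgeR adjusted p = 0.700 and 0.263).

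MT-ND2 (chromosome MT, 4470 to 5511, 1042 bases) encodes the antiporter-like subunit nearest to the base of the arm and had 22 and 9 counts in IP against 51 and 83 in input. Its level was 484 and 392 CPM in IP and 179 and 169 CPM in input, so the groups did not overlap. The rise was 2.61-fold (1.39 ± 0.32 SE on the log2 scale; edgeR, adjusted p = 0.00733). This was the weakest of the 4 calls. MT-ND2 did not pass without input 1 (log2 fold change 1.45, edgeR adjusted p = 0.0697), without input 2 (1.35, 0.173) or with DESeq2 (1.38, 0.0552), where its size was close to that with all libraries. It was smaller and did not pass without IP 1 (0.96, edgeR adjusted p = 0.597) or with no filter on low counts (0.91, 0.318), and on the scale of the FPKM totals it was at -0.24.

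ND1 lies at the foot of the membrane arm and helps to form the channel through which ubiquinone reaches its site. Its messenger MT-ND1 (chromosome MT, 3307 to 4262, 956 bases) had 29 and 10 counts in IP, and 125 and 187 in the inputs. The corresponding levels were 639 and 436 CPM in IP and 440 and 381 CPM in input. IP 2 lay between the inputs, so that only IP 1 stood apart. The log2 fold change of MT-ND1 was 0.49 ± 0.26 (SE) and did not pass (edgeR adjusted p = 0.350), with -0.11 without IP 1 and -1.14 with the FPKM totals (0.0523). MT-ND1 was called lower with limma on log2(FPKM + 1) (-1.22, limma adjusted p = 0.0260) and log2(FPKM + 0.1) (-1.25, 0.0366). So were 69.5% and 50.8% of all genes tested in these settings, whose medians were -1.05 and -1.66.

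ND3, ND4L and ND6 are small subunits that link ND1 to the antiporter-like ones. MT-ND3 (chromosome MT, 10059 to 10404, 346 bases) had 11 and 7 counts in IP beside 13 and 17 in input, the fewest of all members over the 4 libraries together (48), while MT-ND4L and MT-ND6 had fewer in IP. At 242 and 305 CPM in IP against 45.7 and 34.7 CPM in input, the groups did not overlap. Its rise was the largest of the 7 in size, at 6.71-fold (2.75 ± 0.51 SE on the log2 scale; edgeR, adjusted p = 0.000477). MT-ND3 met the filter's minimum CPM only in the group where it was high. Against library totals it was at 198 and 230 CPM in IP, and at 41.0 and 32.7 CPM in input. That choice favours a high value in IP. With no filter its log2 fold change was 2.27 (edgeR adjusted p = 0.00301). With all genes filtered as before, the log2 fold change of MT-ND3 was 2.53 at the lowest without a single library. It did not pass without input 1 or without input 2. It was at 1.14 with the FPKM totals (0.0898).

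MT-ND6 (chromosome MT, 14149 to 14673, 525 bases), the messenger of the other strand, lies directly beside MT-ND5, whose last coordinate is the base before its first. It had 8 and 5 counts in IP beside 36 and 41 in input, which came to 176 and 218 CPM against 127 and 83.6 CPM. Both IP libraries were above both inputs by a small margin. The log2 fold change was 0.93 ± 0.50 (SE) and did not pass (edgeR adjusted p = 0.359). The sources used here do not state whether counting used strand, so reads from the other strand of these genes may be included.

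MT-ND4L (chromosome MT, 10470 to 10766, 297 bases) had 12 and 2 counts in IP beside 102 and 106 in input. Its levels were 264 and 87.1 CPM in IP and 359 and 216 CPM in input. The groups overlapped, and IP 2 was the lowest library. The log2 fold change was -0.40 ± 0.45 (SE), which did not pass (edgeR adjusted p = 0.749), and it ran from -1.85 without IP 1 to -0.07 without input 1. MT-ND4L was the 1 member below the median of all genes tested, and with the FPKM totals it was lower (log2 fold change -2.05, edgeR adjusted p = 0.00621), as were 57.2% of all genes tested.

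**Figure D2:**
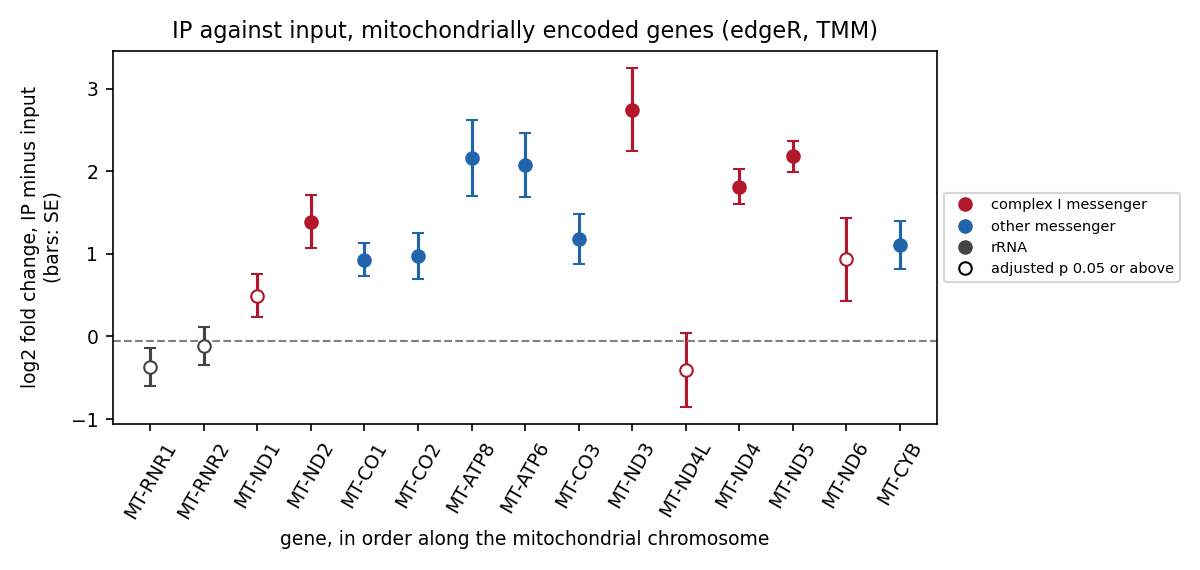
Log2 fold change of IP minus input with its SE (edgeR, TMM scaling, 2 libraries each) for the messengers and rRNAs of mitochondrial DNA, in order along the chromosome, with the median of all genes tested as a dashed line at -0.06. Filled points passed the adjusted p of 0.05. MT-ND3 is at 2.75 and its neighbour MT-ND4L at -0.40.

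Levels per length were compared on the deposited FPKM scale. In both inputs MT-ND4L was the highest member, at 162 and 140 FPKM, followed by MT-ND1 at 61.6 and 76.8 FPKM. MT-ND3 was the lowest, at 17.7 and 19.3 FPKM. MT-ND4 (36.3 and 43.9 FPKM) lay above MT-ND6 (32.3 and 30.7) and MT-ND2 (23.1 and 31.3) in both inputs. MT-ND6 and MT-ND2 changed places between the inputs, and the range of MT-ND5 (30.4 and 45.3) overlapped those of MT-ND4, MT-ND6 and MT-ND2. Input levels spanned 9.14-fold and 7.26-fold from the highest member to the lowest.

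The order was different in IP. There MT-ND5 was the highest, at 62.6 and 48.5 FPKM, and MT-ND4 (49.8 and 42.0 FPKM) and MT-ND3 (42.0 and 40.4) were close to each other. MT-ND4L was the second highest member in IP 1, at 53.3 FPKM, and the lowest in IP 2, at 13.4 FPKM. MT-ND1 (40.0 and 20.9 FPKM), MT-ND2 (27.9 and 17.2) and MT-ND6 (20.1 and 19.0) were in the lower part of the order. The span was 3.11-fold and 3.60-fold. On this scale 2 members (MT-ND3 and MT-ND5) lay above both inputs in both IP libraries, against 1.36% of all genes tested, and 3 (MT-ND1, MT-ND4L and MT-ND6) lay below, against 88.8%.

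**Figure D3:**
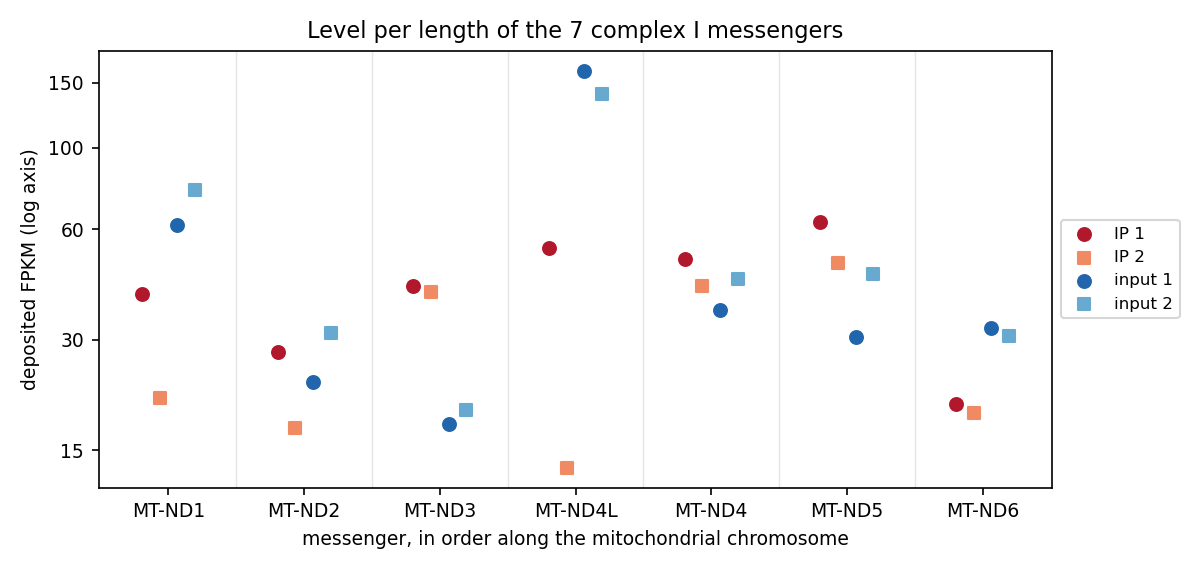
Deposited FPKM (log axis) of the 7 messengers, 1 point per library. In input MT-ND4L stands above all others at 162 and 140 FPKM, and in IP MT-ND5 is highest at 62.6 and 48.5 FPKM.

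Ratios of counts within a library do not depend on the scaling between libraries. They were computed for 19 pairs of single genes, and an exact permutation test over 2 against 2 libraries, two-sided, cannot give less than 0.333, so none could pass the threshold (exact test, adjusted over the 19, 0.373 at the least). MT-ND5 had 2.97 and 4.40 counts for each count of MT-ND1 in IP 1 and IP 2, and 0.936 and 1.12 in input 1 and input 2. The groups did not overlap, and over pooled counts the ratio was 3.19 times as high in IP (exact 95% interval 2.13 to 4.84, counting error only; exact permutation p = 0.333). For MT-ND4 and MT-ND5, neighbours in the membrane arm, the ratio of MT-ND4 to MT-ND5 was 0.605 and 0.659 in IP and 0.906 and 0.737 in input, with both IP libraries below both inputs and a pooled ratio of ratios of 0.781 (interval 0.558 to 1.09, which includes 1; exact permutation p = 0.333).

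MT-ND4L and MT-ND4, which share 7 bases and are carried on a common messenger, were counted in different proportions. The ratio of MT-ND4L to MT-ND4 counts was 0.231 and 0.0690 in IP and 0.962 and 0.688 in input. Both IP libraries were below both inputs, with a pooled ratio of ratios of 0.217 (exact 95% interval 0.110 to 0.398; exact permutation p = 0.333). This pair was chosen after its counts had been seen. Among ratios between members, only that of MT-ND5 to MT-ND1 was in the plan. Per length, MT-ND4L was 4.46 and 3.19 times as high as MT-ND4 in input, and 1.07 and 0.320 times in IP. The IP 2 value rests on 2 counts of MT-ND4L. Between the libraries left in, the difference of the log2 ratio ran from -3.56 to -1.82.

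MT-ND3, also a short messenger, was counted more against MT-ND2 in IP. The ratio was 0.500 and 0.778 in IP and 0.255 and 0.205 in input, a pooled ratio of ratios of 2.58 (interval 1.19 to 5.51; exact permutation p = 0.333). MT-ND6 against MT-ND5 was lower in IP, at 0.0930 and 0.114 against 0.308 and 0.196 (pooled ratio of ratios 0.424, interval 0.209 to 0.802; exact permutation p = 0.333). Length did not order the members in one direction. Across the 13 mitochondrial messengers Spearman's rho between log2 fold change and length was -0.01, and across the 7 members it was 0.43. Between log2 fold change and input counts per base it was -0.66 across the 13 and -0.71 across the 7. Input counts also enter the fold change, which by itself can give a negative value. These values are a description over genes that share libraries.

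**Figure D4:**
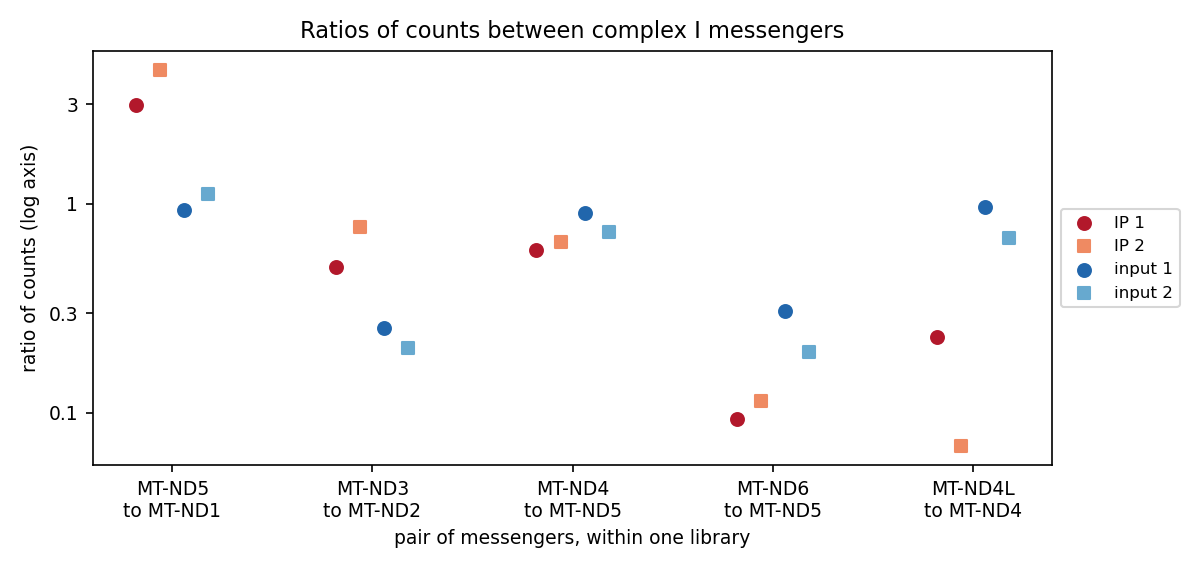
Ratios of counts (log axis) between pairs of complex I messengers within each of 2 IP and 2 input libraries. MT-ND5 to MT-ND1 is higher in IP (2.97 and 4.40 against 0.936 and 1.12), and MT-ND4L to MT-ND4 is lower (0.231 and 0.0690 against 0.962 and 0.688).

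Within the 7, MT-ND5 had a larger share of the counts in IP. It made up 39.1% and 41.5% of their counts in IP 1 and IP 2 and 21.3% and 26.2% in input 1 and input 2. MT-ND4 made up 23.6% and 27.4% in IP and 19.3% and 19.3% in input. MT-ND1 made up 13.2% and 9.43% in IP and 22.7% and 23.5% in input, and MT-ND4L 5.45% and 1.89% against 18.5% and 13.3%. No test was made of these shares.

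The other messengers of mitochondrial DNA encode subunits of cytochrome c oxidase, cytochrome b and ATP synthase, and all 6 were called higher in IP, with log2 fold changes from 0.93 (MT-CO1, edgeR adjusted p = 0.00243) to 2.15 (MT-ATP8, 0.00302). Between them stood MT-CO2 (0.97, 0.0402), MT-CYB (1.11, 0.0199), MT-CO3 (1.18, 0.0180) and MT-ATP6 (2.07, 0.000647; -0.02 without IP 1), and with the FPKM totals all but MT-ATP6 and MT-ATP8 were negative. Of these 6 calls, 0 held without IP 1, 4 without IP 2, 3 without input 1, 1 without input 2, 3 with library totals, 2 with DESeq2, and 0 with the FPKM totals (MT-ATP6 at 0.39, edgeR adjusted p = 0.528, and MT-ATP8 at 0.54, 0.417) or with limma at either pseudocount. The 7 complex I messengers had 1.09 and 1.39 counts for each count of these 6 in IP and 0.957 and 0.976 in input, a pooled ratio of ratios of 1.22 (exact 95% interval 1.02 to 1.46, counting error only), with no test over libraries. The rRNAs MT-RNR1 (-0.37, edgeR adjusted p = 0.443) and MT-RNR2 (-0.12, 0.884), which form the mitochondrial ribosome with imported proteins, did not pass. Both were called lower with no filter on low counts (-0.86 and -0.62, edgeR adjusted p = 6.9e-07 and 0.00172) and with the FPKM totals (-1.97 and -1.73, 1.54e-05 and 9.04e-05). In these settings 0.892% and 57.2% of all genes tested were called lower. Against these rRNAs the 7 messengers had 0.262 and 0.239 counts per count in IP and 0.0802 and 0.0792 in input, a pooled ratio of ratios of 3.19 (interval 2.78 to 3.65). All of mitochondrial DNA, 27 rows, held 2.30% and 2.09% of gene counts in IP and 2.56% and 2.27% in input.

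With MT-CO1 as the reference, the log2 ratio differed between IP and input by 1.89 for MT-ND3, 1.30 for MT-ND5, 0.93 for MT-ND4, 0.44 for MT-ND2, -0.52 for MT-ND1 and -1.76 for MT-ND4L. In these 6 ratios the groups did not overlap (exact permutation p = 0.333 for each, the smallest possible). The share of all genes whose ratio to MT-CO1 separates the groups was not computed, so this count has no baseline. MT-CO1 was itself called higher in IP (log2 fold change 0.93), which lowers these ratios in IP. The counting intervals of the pooled ratio of ratios included 1 for MT-ND2 (0.844 to 2.17) and MT-ND1 (0.483 to 1.11). MT-ND6 was at 0.05, with overlapping groups (exact permutation p = 0.667).

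Nuclear genes of complex I were at low counts. Of 37 nuclear subunit genes listed, 6 had enough counts to be tested and 0 passed in either direction (edgeR; 0 of the 6 at unadjusted p under 0.05, and DESeq2 called 0 of the 3 for which it gave an adjusted p). Over all genes tested, 2.7% were called higher and 1.36% lower, and 574 of 3668 had an unadjusted p under 0.05. DESeq2 called 39 of 2032. Beside these shares, 0 of 6 does not set the nuclear subunit genes apart. The median log2 fold change of the 6 was 0.53, beside -0.06 over all genes tested. The most counted were NDUFS8, with 8 and 1 counts in IP beside 25 and 57 in input (0.31, edgeR adjusted p = 0.877), and NDUFV1, which carries the flavin that takes electrons from NADH, with 10 and 3 against 29 and 48 (0.93, 0.340). Of 18 assembly factors none had enough counts to be tested, with 17 counts in IP and 240 in input in all. Of 27 genes for synthesis, processing and stability of mitochondrial RNA, 23 were listed and 6 tested, of which 0 passed (edgeR; 1, FASTK, at unadjusted p under 0.05, and DESeq2 called 0 of the 3 for which it gave an adjusted p). The same shares over all genes tested apply here, and these counts do not set the list apart either. FASTK, a mitochondrial RNA-binding protein that is needed for MT-ND6 messenger, was at 0.88 (24 and 7 counts in IP, 68 and 122 in input; edgeR adjusted p = 0.110), and POLRMT, the mitochondrial RNA polymerase, at -0.02 (12 and 2 against 69 and 91; 0.992).

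Nuclear DNA holds copies of mitochondrial genes, whose reads can be mistaken for those of the originals. Of such copies of the 7 members, 4 were listed, with 12 counts in all. MTND2P28, on chromosome 1, had 1 and 0 counts in IP beside 3 and 5 in input. MTND2P5 and MTND4P12 had 1 count each, in IP 1, and MTND1P9 had 1, in input 2. With these counts added to the members, 4 of the 7 were called higher as before.

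The genes most like the summed members across the 4 libraries, outside mitochondrial DNA, were sought among 143 genes with at least 50 IP counts. They were RN7SL3, a 7SL RNA of the signal recognition particle (root-mean-square difference 0.23 in centred log2 CPM), SNORD3A, a U3 snoRNA (0.25), RNU4-2 and RNU4-1, U4 snRNAs (0.26 for each), and MUC1, a membrane mucin (0.27). Their log2 fold changes ran from 1.31 to 1.72. These positive values follow from the choice, which went by IP counts and by likeness to a sum that was higher in IP.

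How many members were called was read beside the share of all genes called in the same setting. Other scalings left 4 of 7 members higher and 0 lower: library totals (1.64% of all genes tested higher and 2.45% lower), upper quartile factors (1.83% and 1.88%), median-of-ratios factors (3.16% and 1.44%) and TMM without mitochondrial genes (2.67% and 1.28%). Counts of 4 and 0 also came with a minimum of 10 counts in 2 libraries (1.86% and 0.752%), with nuclear copies added (2.7% and 1.34%), with a replicate block (1.85% and 0.6%) and without IP 2 (1.51% and 1.13%). There were 3 and 0 members with DESeq2 (1.82% and 0.0984%), with no filter (0.274% and 0.892%) and without IP 1 (0.476% and 0.238%). Without input 1 (3.08% and 0.79%) and without input 2 (2.13% and 0.41%), 2 and 0 of the 6 members still tested were called. With limma on the FPKM scale 1 member was higher and 2 lower, at pseudocounts of 1 (0.682% and 69.5%) and of 0.1 (0.682% and 50.8%).

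**Figure D5:**
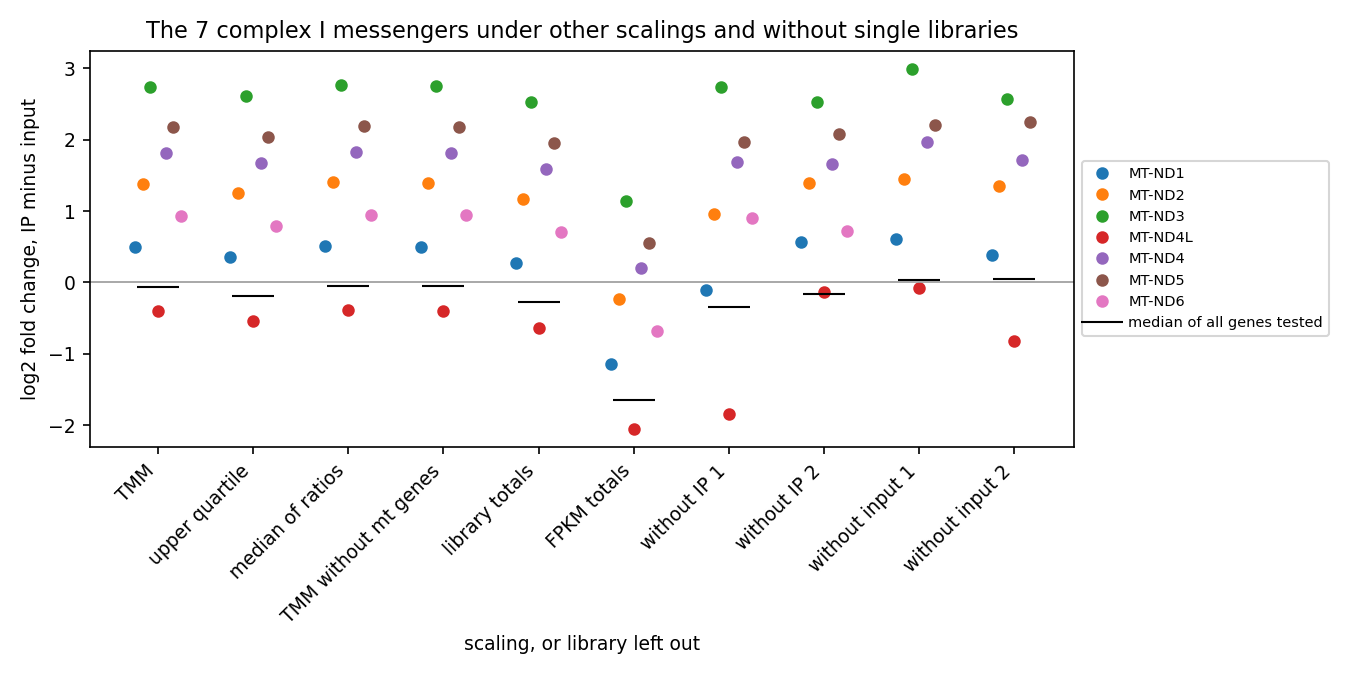
Log2 fold change of IP minus input for the 7 messengers (points) and the median of all genes tested (bars) under 6 scalings and without each library in turn (MT-ND6 had too few counts without input 1 or input 2). MT-ND3, MT-ND5 and MT-ND4 are above 0 in each of these settings, and the FPKM totals move all 7 down, with the median of all genes tested at -1.65.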

How the data were processed

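RNA of 2 IP and 2 input libraries was measured by sequencing. The authors deposited unnormalized read counts for each gene and a second table in FPKM. Per the submitters' processing notes, HISAT2, HOMER and hg38 were used, with no role or version. The sources used here do not state the counter, the strand setting or the handling of multi-mapping reads. Coordinates are from RefSeq GRCh38.p14, in which all 7 members matched. The totals behind FPKM were recovered from mitochondrial genes with at least 20 counts (5 to 14 per library).

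The main test was edgeR's quasi-likelihood test (edgeR 4.0.16, R 4.3.3) with the default expression filter, TMM factors 0.968, 0.860, 1.06 and 1.13, group as the one term and an adjusted p of 0.05. A simulated 4-fold change was called for 59.0% of 200 genes in this comparison (3166 genes run). The simulated spread was a fixed value rather than one estimated from these libraries. Only genes above a minimum expected count in IP 1 were changed, so the share does not give the power for the members. The SE comes from the fold change and F, pools spread across genes and can be below a gene's own scatter. Alternatives used other scalings and filters, DESeq2 1.42.0, limma 3.58.1 on log2 FPKM with pseudocounts of 1 and 0.1, a replicate block and each library left out. Deviations of IP 1 and input 1 from their group means were not correlated (0.00 over 3668 genes). With so few IP counts, counting noise could hide a pairing, so this does not settle whether replicate numbers pair the libraries.

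Named genes were the members, other mitochondrial messengers and rRNAs, nuclear copies with counts, the most counted genes of each further list where none passed, and the 5 genes closest in profile (prior count of 2). The members, lists and rules were chosen with earlier results of these data known.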

Additional observations from a re-analysis of the deposited data

How the results depend on the processing

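Of the 7 members, 4 were higher and 0 lower with TMM. With library totals, upper quartile factors, median-of-ratios factors, TMM without mitochondrial genes, a minimum of 10 counts in 2 libraries, nuclear copies added and a replicate block, 4 were higher. The replicate block changed no member's call, but called 22 lower genes in all instead of 50, and 4 of the 6 other messengers. With the FPKM totals 0 were higher and 1 lower, and with limma on log2(FPKM + 1) and log2(FPKM + 0.1), 1 and 2. DESeq2 and no filter gave 3. Without single libraries 2 to 4 were higher, 2 of them without input 1 and without input 2, where fewer genes were tested (1266 and 1221). In such fits the lone library is assumed to vary like the other group.

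Over all genes, 99 were higher and 50 lower. Library totals gave 60 and 90, the FPKM totals 17 and 2098, DESeq2 37 and 2, limma 25 and 2548 (pseudocount 1) or 25 and 1865 (0.1), and no filter 50 and 163. Without single libraries 26 to 94 were higher and 5 to 70 lower. The median of all genes tested was -0.19 with upper quartile factors and -0.27 with library totals.

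Signs turned with the FPKM totals and with limma at pseudocounts of 1 and 0.1, in this order, for MT-ND1 (-1.14, -1.22, -1.25), MT-ND2 (-0.24, -0.28, -0.29), MT-ND6 (-0.68, -0.66, -0.69), MT-CO1 (-0.70, -0.72, -0.73), MT-CO2 (-0.68, -0.80, -0.81), MT-CO3 (-0.43, -0.43, -0.43) and MT-CYB (-0.51, -0.53, -0.55), and with limma for MT-ATP6 (-0.23, -0.26). Without single libraries MT-ND1 ran from -0.11 (without IP 1) to 0.61, MT-ATP6 from -0.016 (without IP 1) to 2.44, and MT-RNR2 from -0.31 to 0.057 (without input 1). The within-library ratio of MT-ND1 was 0.48 against MT-RNR2, and that of MT-ND6 was -0.13 against the 6 other messengers. Against MT-CO1, that of MT-ND6 ran from -0.26 to 0.36 without single libraries (-0.26 without IP 2 and -0.26 without input 2). MT-RNR1 and MT-RNR2 were called lower with no filter, the FPKM totals and limma at both pseudocounts. The cause was not tested. Depth limits MT-ND3, MT-ND4L and MT-ND6, with 18, 14 and 13 IP counts.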
